A study of Rattus norvegicus with 4 samples.

Results

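The secreted Wnt signals, the receptors that read them and the secreted proteins that block or boost them were followed in the carotid body (CB), the paired arterial sense organ in which glomus cells respond to low oxygen. Genes were chosen by symbol alone, and 46 of the 32883 genes listed met the rule. They comprised 19 Wnt ligands, 10 Frizzled (Fzd) receptors, 4 R-spondins (Rspo), 3 Lgr receptors and 10 secreted inhibitors of the Sfrp, Frzb, Dkk and Wif1 kinds. RNA came from whole CBs of Sprague Dawley rats, with no treatment and no engineered allele at either age, and 2 libraries from neonates (day 5) were compared with 2 libraries from adults (day 21). Each library was a pool, of 6 pups or 3 adults per the series' design text, and the paper describes larger pools and an additional replicate per age. Animals of both sexes were included, and all cell types of the organ, together with whatever was dissected with it, contributed to each value.

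Wnt ligands are lipid-modified glycoproteins that act over short distances. In the beta-catenin branch, a ligand binds a Frizzled receptor and a co-receptor, Lrp5 or Lrp6, and beta-catenin then enters the nucleus and switches on target genes with Tcf and Lef factors. Other ligands use Frizzled with Ror or Ryk and act on cell shape, polarity and migration. R-spondins bind Lgr4, Lgr5 or Lgr6 and keep Frizzled at the cell surface. Sfrp proteins, Frzb and Wif1 capture ligands, whereas Dkk1, Dkk2 and Dkk4 act on the Lrp co-receptors. Wnt signals guide the outgrowth of blood vessels, connective tissue and derivatives of the neural crest, from which glomus cells arise.

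Estimated counts totaled between 36286191 and 39476110 per library. Levels are given as TMM-normalized CPM, the counts of a gene scaled to a fixed library total, a measure of relative abundance that is not corrected for gene length, so levels of different genes are not compared. Fold changes and their standard errors (SE) are edgeR's quasi-likelihood estimates, taken as neonate over adult, and negative values stand for genes higher in adults. "edgeR adjusted p" denotes the p of that test after Benjamini-Hochberg adjustment over the 13843 genes tested. A gene passed at an edgeR adjusted p under 0.05, and was called where it also differed by at least 2-fold. With 2 libraries against 2, an exact two-sided permutation test of a single gene cannot go below 0.333. In whole-organ RNA, fewer cells of a type and less RNA per cell cannot be told apart.

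Markers of glomus cells were abundant in every library, with the summed level of 7 markers at 5630 and 4291 CPM in neonates and 4895 and 4073 CPM in adults. Tyrosine hydroxylase (Th), the rate-limiting enzyme of catecholamine synthesis, had 1020 and 837 CPM in neonates and 1407 and 1135 CPM in adults. Markers of dividing cells differed between ages as a group. Their sum was 503 and 430 CPM in neonates against 102.1 and 104.7 CPM in adults, and 5 of 5 were called higher in neonates. Parathyroid markers, which do not belong to the CB, were nearly confined to the neonatal libraries, with sums of 1796 CPM (neonate replicate 1) and 212 CPM (neonate replicate 2) against 0.0245 and 0.0504 CPM in adults. Mitochondrially encoded genes took 18.7% and 15.6% of counts in neonates and 9.06% and 9.08% in adults, and with these and the ribosomal protein genes left out of the scaling the same 3 Wnt family genes were called. The part of these features in the results was not tested, except that median log2 fold changes are also given without neonate replicate 1.

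Of the 46 Wnt family genes, 30 reached 1 CPM, taken before TMM scaling, in 2 or more libraries and so could be tested. Adults had the higher level of the Frizzled receptors Fzd5, Fzd7 and Fzd4, of the R-spondin receptor Lgr4 and of the inhibitors Sfrp5, Sfrp4 and Dkk3, by 1.63-fold to 4.23-fold. Frzb was the only Wnt family gene that passed toward neonates in this fit, by 1.45-fold. Most ligands, both R-spondins tested, Lgr5 and the abundant inhibitor Sfrp1 did not pass. In all, 3 of the 30 were called higher in adults, which is 10.0% against 13.2% of all genes tested. None was called higher in neonates, where 7.68% of all genes tested were, and none reached 2-fold at an unadjusted p under 0.05 either. DESeq2 and limma-voom also gave 0. Without neonate replicate 1, 29 were tested, with a median log2 fold change of -0.185, against -0.006 for all genes in that fit.

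Without a minimum fold change, 10 of the 30 (33.3%) passed toward adults, close to the 31.1% of all genes tested. Toward neonates 1 of the 30 (3.33%) passed, while 31.2% of all genes tested did. The libraries of the ages did not overlap for 21 of the 30 (70.0%), against 83.0% of all genes tested. The median log2 fold change of the 30 was -0.32, and that of all genes tested was -0.0029. Scaled to library size alone, without TMM, these medians became -0.564 and -0.248, so this scaling moved all genes toward adults alike. With that scaling 5 of the 30 were called higher in adults, beside 2549 of all 13843 genes tested. Genes called higher in neonates made up 21.6% of all called genes in place of 36.8%. Toward adults 15 of the 30 passed, and the number of all genes that passed with that scaling was not counted. Under both scalings, 21 of the 30 lay below the median of all genes.

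**Figure D1:**
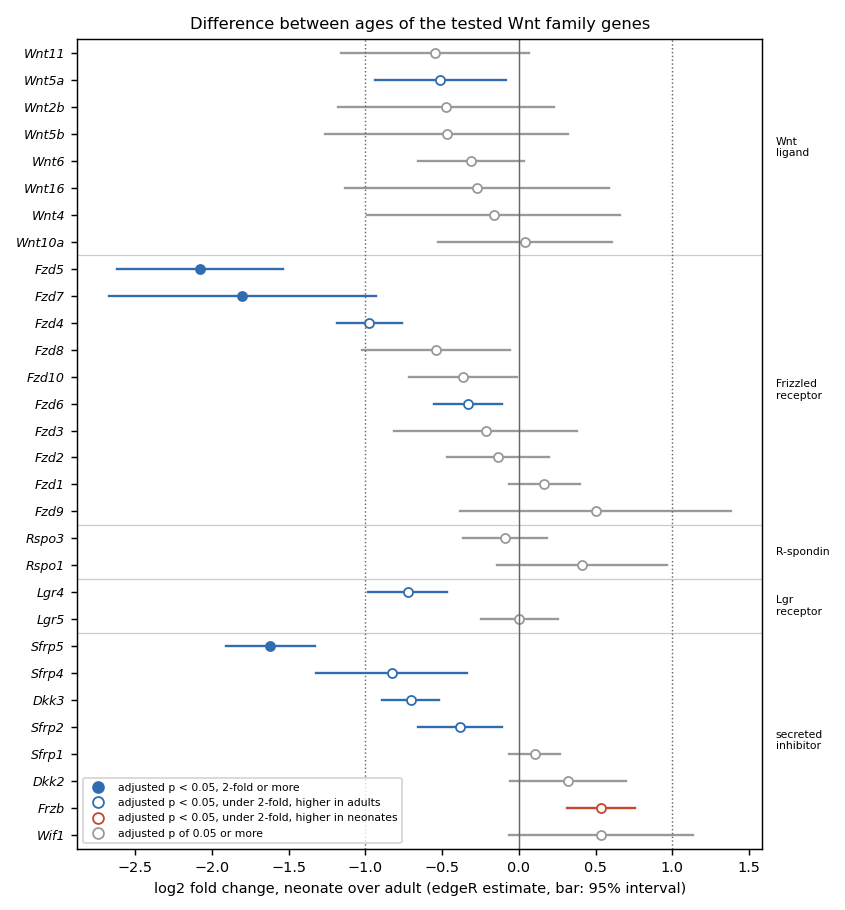
Log2 fold change, neonate over adult, of the 30 tested Wnt family genes by role, with bars for the 95% interval of edgeR's estimate. Filled points are called genes, open colored points passed under 2-fold, gray points did not pass, and dotted lines mark 2-fold. Fzd5, Fzd7 and Sfrp5 lie beyond 2-fold on the adult side, and Frzb is the colored point on the neonate side.

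The stretches of genome just before the start sites of the 3 called genes and of Frzb are shown as examples from either direction. They are RefSeq sequences of the assembly GRCr8, not of the Rnor_6.0 reference used for the counts, and give the 250 bases before the annotated start, 5′ to 3′ on the gene's strand. Capitals mark CG dinucleotides, the main sites of DNA methylation in vertebrates.
Fzd5 (GRCr8 chr9:73614040-73614289, minus strand): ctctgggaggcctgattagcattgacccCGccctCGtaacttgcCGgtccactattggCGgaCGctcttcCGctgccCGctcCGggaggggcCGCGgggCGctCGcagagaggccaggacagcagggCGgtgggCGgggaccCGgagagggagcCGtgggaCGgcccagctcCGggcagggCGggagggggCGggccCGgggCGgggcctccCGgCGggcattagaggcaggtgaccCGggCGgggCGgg
Fzd7 (GRCr8 chr9:68425288-68425537, plus strand): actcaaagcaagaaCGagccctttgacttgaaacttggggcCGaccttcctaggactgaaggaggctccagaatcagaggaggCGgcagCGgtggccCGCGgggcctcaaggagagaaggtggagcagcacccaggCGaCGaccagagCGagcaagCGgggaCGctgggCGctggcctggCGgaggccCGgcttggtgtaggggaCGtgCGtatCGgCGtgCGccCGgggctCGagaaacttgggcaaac
Sfrp5 (GRCr8 chr1:250960513-250960762, minus strand): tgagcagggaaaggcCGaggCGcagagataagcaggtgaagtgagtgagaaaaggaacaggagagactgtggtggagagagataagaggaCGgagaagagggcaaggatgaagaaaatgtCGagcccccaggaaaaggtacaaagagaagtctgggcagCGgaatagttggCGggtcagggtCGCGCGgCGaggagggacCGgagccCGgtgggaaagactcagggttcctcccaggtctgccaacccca
Frzb (GRCr8 chr3:85772097-85772346, minus strand): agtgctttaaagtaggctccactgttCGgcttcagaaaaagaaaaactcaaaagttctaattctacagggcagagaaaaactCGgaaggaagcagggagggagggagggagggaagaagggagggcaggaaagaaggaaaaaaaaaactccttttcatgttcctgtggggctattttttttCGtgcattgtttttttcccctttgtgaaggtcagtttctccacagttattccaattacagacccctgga
These windows held 27 CG sites at Fzd5, 21 at Fzd7, 12 at Sfrp5 and 3 at Frzb, which had the fewest of the 32 Wnt family genes matched by symbol. The median over those 32 was 20.5, over the 7 matched genes that passed toward adults it was 21, and over all 33469 promoters it was 5. The 32 are protein-coding genes, whereas the 33469 promoters were not filtered for that, so the sets are unlike. The sequence CTTTGAT, a core that Tcf and Lef factors bind, was searched on both strands in the 300 bases from 250 before to 50 after each start. It was found in 0 of the 32 and in 3.63% of all promoters, and no match says only that these letters are not in that window.

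Of the 19 Wnt ligands, 8 were tested, 1 of these passed toward adults under 2-fold, none was called, and the median log2 fold change was -0.39. By comparison, 31.1% of all genes tested passed toward adults, and 13.2% were called higher in adults and 7.68% higher in neonates. Wnt5a (ENSRNOG00000015618), the ligand best known for signaling without beta-catenin, had 6.53 and 7.35 CPM in the neonatal libraries and 10.0 and 9.78 CPM in the adult libraries. Both adult libraries were above both neonatal libraries, at a log2 fold change of -0.51 (SE 0.19, edgeR adjusted p = 0.0392). The edgeR adjusted p was 0.0919 without neonate replicate 1, 0.162 without adult replicate 1 and 0.137 without adult replicate 2, so Wnt5a no longer passed when any of these libraries was left out.

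Wnt6, a ligand made by many epithelia, had 13.7 and 18.3 CPM in neonates and 19.2 and 20.6 CPM in adults, with a log2 fold change of -0.31 (95% interval -0.66 to 0.035, edgeR adjusted p = 0.105). Its log2 fold change was -0.52 (edgeR adjusted p = 0.0144) without neonate replicate 2 and -0.11 (0.562) without neonate replicate 1, and Wnt6 also passed with a replicate block (0.0328) and when scaled to library size alone (0.0163). Wnt11, which takes part in cell movement, had 3.24 and 2.78 CPM in neonates and 3.98 and 4.81 CPM in adults, with a log2 fold change of -0.54 (95% interval -1.16 to 0.068, edgeR adjusted p = 0.107). Wnt2b had 2.54 and 1.87 CPM against 3.12 and 3.00 CPM, a log2 fold change of -0.47 (edgeR adjusted p = 0.21). The ages did not overlap for these 3 ligands, yet the intervals included 0. Such non-overlap was seen for 4 of the 8 ligands tested and for 83.0% of all genes tested.

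For Wnt5b, Wnt16, Wnt4 and Wnt10a the libraries of the ages overlapped. Wnt5b had 1.86 and 3.37 CPM in neonates and 3.14 and 4.11 CPM in adults, and the gap between the neonatal libraries exceeded the difference between the means of the ages. Wnt10a, at 5.24 and 5.07 CPM in neonates, lay between the adult libraries at 5.77 and 4.26 CPM. Wnt4 had 1.86 and 1.53 CPM against 2.28 and 1.51 CPM, and Wnt16 had 1.04 and 1.53 CPM against 1.40 and 1.71 CPM. Their edgeR adjusted p ranged from 0.268 for Wnt5b to 0.90 for Wnt10a.

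**Figure D2:**
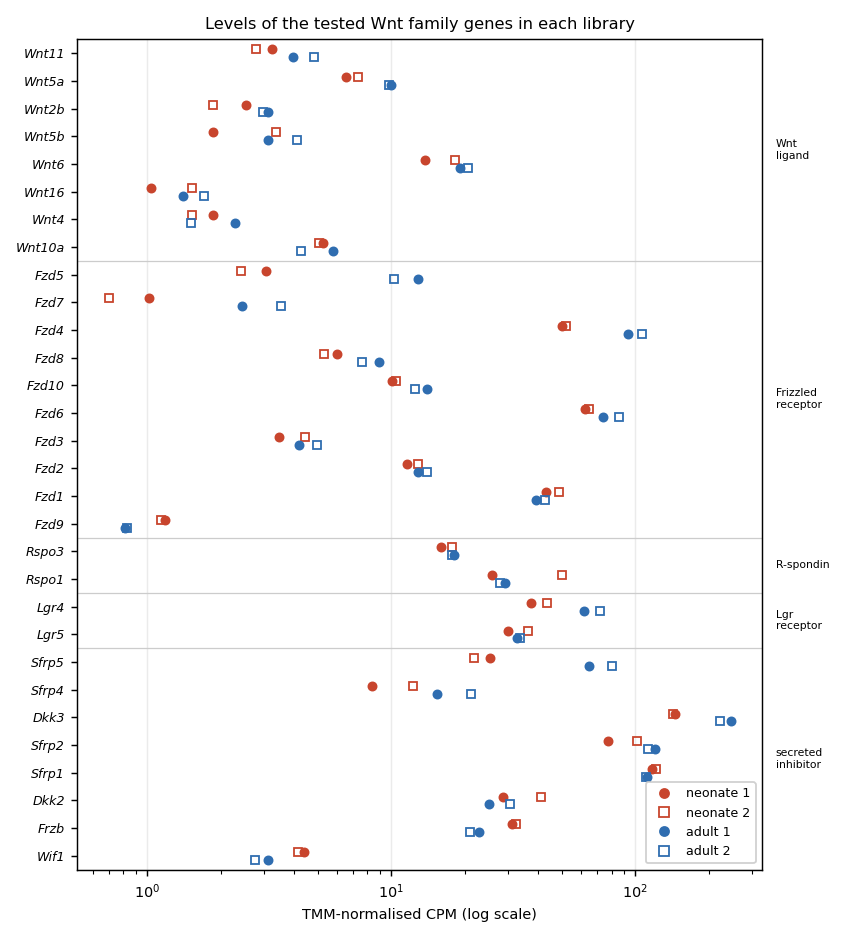
TMM-normalized CPM, on a log scale, of the 30 tested Wnt family genes in each of the 4 libraries, by role. Red marks are neonates, blue marks adults, circles replicate 1 and open squares replicate 2. Adult marks stand apart to the right for Fzd5, Fzd7, Fzd4, Lgr4, Sfrp5 and Dkk3, and Rspo1 is parted by neonate replicate 2.

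The other 11 ligands were under the filter and were not tested. Wnt1 had 0 counts in all libraries, which allows up to 0.042 CPM in neonates and 0.0373 CPM in adults, taking 3 counts over both libraries of an age as the floor. This floor covers counting error only. Wnt3, Wnt3a, Wnt7a and Wnt8b had at most 12 counts each over the 4 libraries together. Their order between ages could not be seen at this depth.

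Several rare ligands were unevenly spread over the libraries. Wnt10b, a ligand known for restraining fat cell formation, had 5 and 3 counts in neonates and 25 and 56 counts in adults, a ratio of 8.99 in favor of adults (95% exact binomial counting interval 4.35 to 21.5). Wnt2 had 0 and 2 counts in neonates and 11 and 17 counts in adults, a ratio of 12.4 (counting interval 3.14 to 108). Wnt9a had 1 and 0 counts in neonates against 9 and 8 counts in adults, a ratio of 15.1 (counting interval 2.37 to 631). Each adult library exceeded each neonatal library for these 3 ligands. The counting intervals rest on counts summed over both libraries of an age, so they leave out variation between libraries.

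Wnt8a, Wnt9b and Wnt7b went the other way in counts. Wnt8a had 11 and 10 counts in neonates and 0 in both adult libraries, which made it at least 7.88-fold higher in neonates against the floor. Wnt9b had 19 and 10 counts in neonates and 9 and 6 counts in adults. Wnt7b, a ligand of epithelia, had 28 counts in neonate replicate 1, 0 in neonate replicate 2 and adult replicate 1, and 1 in adult replicate 2. The sum of 5 epithelial markers was 38.1 and 18.9 CPM in neonates and 27.4 and 26.7 CPM in adults. Of these, Krt8 was called higher in neonates, Cdh1 passed toward adults under 2-fold, Epcam did not pass, and Krt5 and Krt14 were under the filter, Krt5 with 52 counts in neonate replicate 1, 1 in neonate replicate 2 and 0 in adults. Neonate replicate 1 also had the larger sum of parathyroid markers, and the part of these cells in the Wnt7b count was not tested. In an edgeR fit of all 19411 genes with any count, Wnt10b (adjusted p = 0.0089) and Wnt8a (adjusted p = 0.029) passed, and the other rare Wnt family genes had adjusted p of 0.0648 or more.

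**Figure D3:**
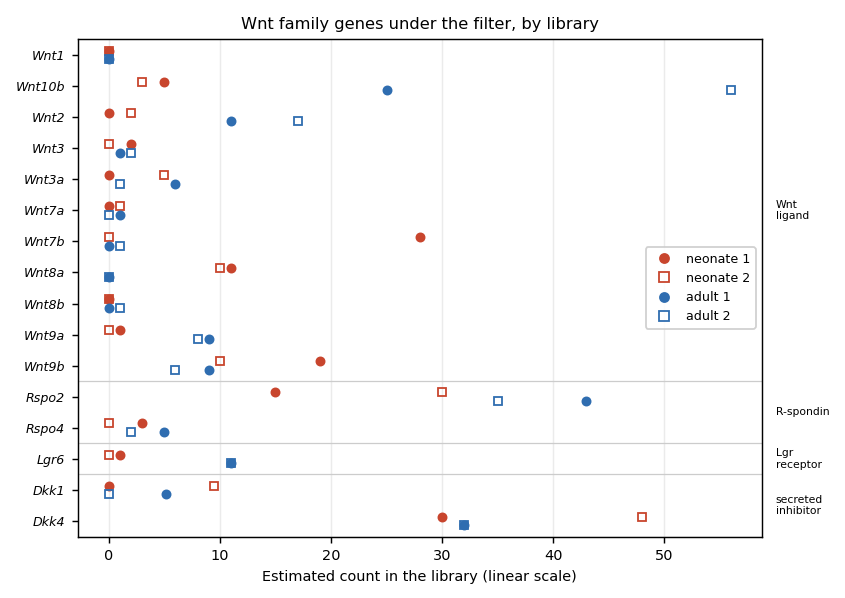
Estimated counts, on a linear scale, in each of the 4 libraries for the 16 Wnt family genes under the filter, with circles for replicate 1 and open squares for replicate 2. Wnt10b, Wnt2, Wnt9a and Lgr6 have their higher counts in the blue adult libraries, Wnt8a in both red neonatal libraries, and Wnt7b in neonate replicate 1 alone.

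All 10 Frizzled receptors were tested. Of these, 2 were called higher in adults, 2 passed toward adults under 2-fold, 6 did not pass, and the median log2 fold change stood at -0.35. The 2 called and the 4 that passed toward adults in all are near the shares of all genes tested, 13.2% and 31.1%. Fzd5 (ENSRNOG00000014678), a receptor of beta-catenin signaling, had 3.07 and 2.42 CPM in neonates and 12.9 and 10.3 CPM in adults. The adult libraries were far above the neonatal libraries, by 4.23-fold (log2 fold change -2.08, SE 0.24, edgeR adjusted p = 9.81e-05), and 2.78% of all genes tested had a lower log2 fold change. Fzd7 (ENSRNOG00000016119), a receptor of stem and progenitor cells, had 1.01 and 0.696 CPM in neonates and 2.45 and 3.53 CPM in adults. It was 3.49-fold higher in adults (log2 fold change -1.80, SE 0.38, edgeR adjusted p = 0.00314), from 36 and 25 counts against 100 and 140. Before TMM scaling, Fzd7 reached 1 CPM in the adult libraries alone, so it could be tested only through the age in which it was higher. With either adult library left out, Fzd7 fell under the filter and was not tested. Of 4 macrophage markers, Csf1r and Adgre1 were called higher in adults, Mrc1 passed toward adults and Cd68 did not pass, and their sum was 49.9 and 57.1 CPM in neonates and 86.8 and 85.5 CPM in adults. Of 5 smooth muscle and pericyte markers, Rgs5 was called higher in adults, Myh11 passed toward adults, Pdgfrb passed toward neonates, and Acta2 and Cnn1 did not pass, with a sum of 1020 and 1064 CPM in neonates and 1731 and 1801 CPM in adults. The part of these cells in the Fzd5 and Fzd7 results was not tested.

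Fzd4 (ENSRNOG00000016848), which in blood vessels receives Norrin as well as Wnt ligands, had 50.01 and 51.97 CPM in neonates and 93.4 and 107 CPM in adults. The difference was 1.96-fold (log2 fold change -0.97, SE 0.094, edgeR adjusted p = 3.99e-05), just short of the 2-fold used for calls, and Fzd4 was called without adult replicate 1 (-1.10), with a mean of at least 5 CPM (-1.01) and when scaled to library size alone (-1.22). Of the 4 endothelial markers analyzed, Tek and Cldn5 passed toward adults under 2-fold and Cdh5 and Kdr did not pass, and the summed level was 649 and 713 CPM in neonates and 690 and 709 CPM in adults. The part of vessel cells in the Fzd4 result was not tested.

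Fzd6, a receptor of the polarity branch, had 62.3 and 64.8 CPM in neonates and 73.7 and 86.1 CPM in adults. It passed at a log2 fold change of -0.33 (SE 0.097, edgeR adjusted p = 0.0155), but not without neonate replicate 1 (edgeR adjusted p = 0.0502) or adult replicate 2 (0.122). Fzd8 had 6.03 and 5.32 CPM against 8.88 and 7.61 CPM, a log2 fold change of -0.54 (SE 0.21, edgeR adjusted p = 0.0513). Its estimated counts are fractional in neonate replicate 1 and both adult libraries, so reads shared with another sequence entered this value. Fzd10 had 10.1 and 10.5 CPM against 14.0 and 12.5 CPM (log2 fold change -0.36, edgeR adjusted p = 0.0671). Neither Fzd8 nor Fzd10 overlapped between ages, as was true of 83.0% of all genes tested, and both lay close to the threshold. Fzd8 passed in 6 alternatives, among them limma-voom (adjusted p = 0.0383), and Fzd10 in 2, a mean of at least 5 CPM (edgeR adjusted p = 0.0499) and scaling to library size alone (0.00797).

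Fzd1, Fzd2, Fzd3 and Fzd9 did not pass, with edgeR adjusted p from 0.186 to 0.498. Fzd1, a widely expressed receptor, had 42.9 and 48.8 CPM in neonates and 39.1 and 42.6 CPM in adults, and its log2 fold change of 0.17 (95% interval -0.066 to 0.40) turned to -0.079 when scaled to library size alone. Fzd2 had 11.6 and 12.9 CPM against 12.9 and 14.0 CPM. Fzd3, a receptor needed for axon growth, had 3.46 and 4.43 CPM against 4.20 and 4.96 CPM. Fzd9 had 1.18 and 1.14 CPM against 0.81 and 0.832 CPM, with a log2 fold change of 0.50 whose interval ran from -0.38 to 1.38.

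Ratios between receptors of the same library do not depend on how libraries are scaled. For each count of Fzd1, neonates had 0.0715 and 0.0497 counts of Fzd5 and adults had 0.33 and 0.241. The ratio of Fzd4 to Fzd1 was 1.17 and 1.07 in neonates and 2.38 and 2.51 in adults. Both ratios were higher in each adult library than in each neonatal library. These pairs were chosen after the values were seen and no test was made on them.

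Among the R-spondins, Rspo1 and Rspo3 were tested and neither passed. Rspo1, which boosts beta-catenin signaling, had 25.9 and 50.3 CPM in neonates, with 29.3 and 27.9 CPM in adults. The adult libraries lay between the neonatal libraries. Its log2 fold change of 0.41 (SE 0.24, edgeR adjusted p = 0.169) rested on neonate replicate 2: it was -0.13 (edgeR adjusted p = 0.395) without that library and 0.82 (edgeR adjusted p = 8.33e-05) without neonate replicate 1. Rspo3, a signal for blood vessels, had 16.0 and 17.7 CPM in neonates and 18.1 and 17.7 CPM in adults, and its log2 fold change was -0.091 (95% interval -0.37 to 0.18, edgeR adjusted p = 0.536). Rspo2 was under the filter with 15 and 30 counts in neonates and 43 and 35 counts in adults, and Rspo4 had 10 counts in all.

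Of the 2 R-spondin receptors tested, Lgr4 passed and Lgr5 did not. Lgr4 (ENSRNOG00000005715) had 37.2 and 43.4 CPM in neonates and 61.6 and 71.6 CPM in adults, and passed toward adults at 1.65-fold (log2 fold change -0.72, SE 0.11, edgeR adjusted p = 0.000596). Lgr5 (ENSRNOG00000004221), a stem cell marker of the gut that is also a target of beta-catenin, had 30.2 and 36.5 CPM in neonates and 32.8 and 33.7 CPM in adults. The adult values lay within the neonatal range, and the log2 fold change was 0.0035 (95% interval -0.25 to 0.25, edgeR adjusted p = 0.98), which changed sign under 8 alternatives and so carries no direction. Counts of Lgr4 per count of Lgr5 were 1.23 and 1.19 in neonates and 1.88 and 2.12 in adults, a pair chosen after the values were seen. Lgr6, with 1 and 0 counts in neonates and 11 in each adult library, was under the filter.

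Of the 10 secreted inhibitors, 8 were tested. Among these, 1 was called higher in adults, 3 passed toward adults and 1 toward neonates under 2-fold, and 3 did not pass. Of all genes tested, 13.2% were called higher in adults. With no minimum fold change, 4 of the 8 passed toward adults and 1 toward neonates, where 31.1% and 31.2% of all genes tested did. Sfrp5 (ENSRNOG00000014940), which captures Wnt5a and is known from fat tissue, had 25.4 and 21.8 CPM in neonates and 64.9 and 80.1 CPM in adults. It was 3.07-fold higher in adults (log2 fold change -1.62, SE 0.13, edgeR adjusted p = 1.53e-05), the lowest adjusted p of the 30. It was called in every alternative, with log2 fold changes from -1.87 to -1.49. The 3 adipocyte markers Adipoq, Plin1 and Cidec were all called higher in adults, with a sum of 5.24 and 6.43 CPM in neonates and 23.9 and 35.2 CPM in adults, and their part in the Sfrp5 result was not tested.

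Dkk3 (ENSRNOG00000016343), a divergent Dickkopf protein, had 145 and 143 CPM in neonates and 247 and 222 CPM in adults. It passed toward adults at 1.63-fold (log2 fold change -0.70, SE 0.082, edgeR adjusted p = 0.000108). Sfrp4 had 8.34 and 12.3 CPM in neonates and 15.4 and 21.3 CPM in adults, with log2 fold change -0.83 (SE 0.22, edgeR adjusted p = 0.00905). Without adult replicate 2 it did not pass (log2 fold change -0.60, edgeR adjusted p = 0.074), and it was called without neonate replicate 2 (-1.12) or adult replicate 1 (-1.07). Sfrp2 had 77.1 and 101.8 CPM against 120.7 and 112.5 CPM, a log2 fold change of -0.38 (SE 0.12, edgeR adjusted p = 0.022), and did not pass without neonate replicate 1 (-0.19, edgeR adjusted p = 0.149).

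Sfrp and Dkk3 genes are widely expressed in connective tissue. Of 6 fibroblast markers analyzed, Dcn was called higher in adults and Pdgfra and Lum passed toward adults under 2-fold, Postn was called higher in neonates, and Col1a1 and Col3a1 did not pass. Their summed level was 14470 and 17250 CPM in neonates and 16950 and 18780 CPM in adults. The part of fibroblasts in these results was not tested.

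Frzb (ENSRNOG00000007765), a Frizzled-related protein that captures ligands, had 31.3 and 32.4 CPM in neonates and 22.9 and 21.1 CPM in adults. It passed toward neonates at 1.45-fold (log2 fold change 0.54, SE 0.098, edgeR adjusted p = 0.0014), and its adjusted p was 0.0322 or less in every alternative, scaling to library size alone included. Frzb is known from growing cartilage. The cartilage collagen gene Col2a1 was at 16.6 and 22.1 CPM in neonates against 1.20 and 2.70 CPM in adults, while Acan was called higher in adults and Matn3 was under the filter. The sum of these 3 markers was 17.5 and 23.1 CPM in neonates and 4.42 and 5.07 CPM in adults, and their part in the Frzb result was not tested.

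Wif1 had 4.39 and 4.15 CPM in neonates and 3.12 and 2.77 CPM in adults, with the same log2 fold change as Frzb to 2 decimals, 0.54, but an SE of 0.26, and it did not pass (edgeR adjusted p = 0.105). Dkk2 had 28.7 and 41.0 CPM against 25.1 and 30.8 CPM, with overlapping ages (log2 fold change 0.32, edgeR adjusted p = 0.125), and passed without neonate replicate 1 (0.56, edgeR adjusted p = 0.00408). Sfrp1 (ENSRNOG00000017783), at 117.6 and 121.7 CPM in neonates and 112.1 and 110.7 CPM in adults, had a log2 fold change of 0.10 (95% interval -0.062 to 0.27, edgeR adjusted p = 0.245), which turned to -0.14 when scaled to library size alone. Per count of Sfrp1, there were 0.216 and 0.179 counts of Sfrp5 in neonates and 0.579 and 0.723 in adults. Counts of Frzb per count of Sfrp1 were 0.267 and 0.266 in neonates and 0.204 and 0.19 in adults. These pairs, too, were chosen after the values were seen. Dkk4 and Dkk1 were under the filter, Dkk4 with 30 and 48 counts in neonates and 32 in each adult library, and Dkk1 with fractional estimates of at most 9.49.

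**Figure D4:**
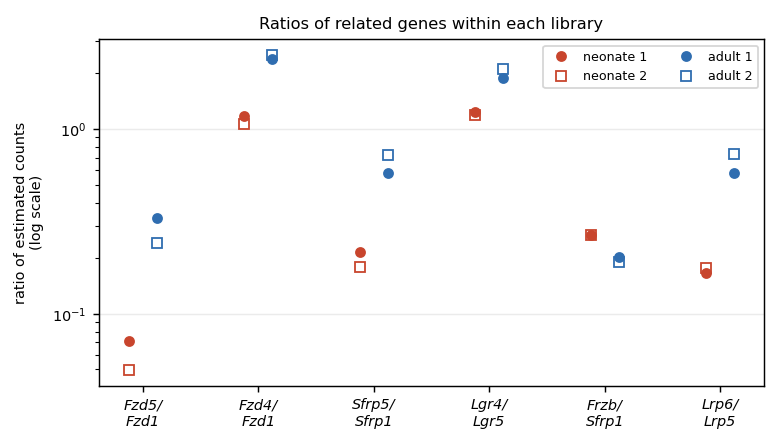
Ratios of estimated counts of related genes within each of the 4 libraries, on a log scale, which do not depend on library scaling. Red marks are neonates, blue marks adults, circles replicate 1 and open squares replicate 2. The ratios of Fzd5 and Fzd4 to Fzd1, Sfrp5 to Sfrp1, Lgr4 to Lgr5 and Lrp6 to Lrp5 are higher in both adult libraries. That of Frzb to Sfrp1 is higher in both neonatal libraries. All pairs were chosen after the values were seen, and no test was made on them.

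Other genes of the pathway were followed as 61 genes in 6 lists, of which 56 were tested. Of these, 5 were called higher in adults and 3 higher in neonates, and a further 16 passed toward adults and 14 toward neonates under 2-fold. Their median log2 fold change was 0.055. Both called shares of the 56 are below those of all genes tested, 13.2% and 7.68%. In all, 21 of the 56 passed toward adults and 17 toward neonates, where 31.1% and 31.2% of all genes tested did. Lrp6 (ENSRNOG00000006338), the co-receptor of beta-catenin signaling, had 9.94 and 9.91 CPM in neonates and 40.5 and 45.6 CPM in adults, a 4.34-fold difference (log2 fold change -2.12, SE 0.11, edgeR adjusted p = 2.39e-06). Its paralog Lrp5 had 59.4 and 55.7 CPM against 70.0 and 62.0 CPM and did not pass (edgeR adjusted p = 0.102). Counts of Lrp6 per count of Lrp5 were 0.167 and 0.178 in neonates and 0.579 and 0.736 in adults, again a pair chosen after the values were seen.

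Of the 7 co-receptors and turnover genes tested, Lrp6 was called higher in adults, and Ryk, Ptk7 and Kremen1 passed toward adults under 2-fold. Ror2 passed toward neonates at a log2 fold change of 0.40, and Lrp5 and Ror1 did not pass. In all, 4 of the 7 passed toward adults and 1 toward neonates, where 31.1% and 31.2% of all genes tested did. Wls, the carrier that brings Wnt ligands to the cell surface, had 92.7 and 97.3 CPM in neonates and 212 and 215 CPM in adults, or 2.25-fold (edgeR adjusted p = 5.64e-06). Porcn, the enzyme that attaches the lipid to Wnt ligands, had 25.5 and 32.1 CPM against 26.7 and 24.6 CPM and did not pass.

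Of the 13 extracellular modulators tested, 2 were called in each direction. Among all genes tested, 13.2% were called higher in adults and 7.68% higher in neonates. Gpc6, a glypican, was 2.84-fold higher in adults (edgeR adjusted p = 0.0086), and Adgra2, which aids Wnt7 signaling in brain vessels, was 2.08-fold higher in adults (log2 fold change -1.05, edgeR adjusted p = 9e-05). The log2 fold change of Gpc6 was -2.15 without neonate replicate 1 and -1.03 without neonate replicate 2. Without adult replicate 2, Gpc6 (-1.22, edgeR adjusted p = 0.0619) and Adgra2 (-0.92) were no longer called. Cthrc1, a secreted protein of growing matrix that favors the polarity branch, was 2.29-fold higher in neonates (log2 fold change 1.19, edgeR adjusted p = 1.77e-05), as was Tpbg, an inhibitor at the membrane (log2 fold change 1.20, edgeR adjusted p = 0.000505). Scaled to library size alone, both had a log2 fold change of 0.95 and were not called.

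Inside the cell, 7 of the 16 relay genes tested passed toward adults and 6 toward neonates. The shares among all genes tested were 31.1% and 31.2%. Beta-catenin itself, Ctnnb1, had 225 and 212 CPM in neonates and 403 and 432 CPM in adults, with log2 fold change -0.93 (SE 0.085, edgeR adjusted p = 3.05e-05). Bcl9l, a coactivator of beta-catenin, was called higher in adults at a log2 fold change of -1.08 (edgeR adjusted p = 0.000132). It was at -0.93 without neonate replicate 2 and -0.99 without adult replicate 2. Gsk3b (-0.94), Pygo1 (-0.65), Apc (-0.62), Btrc (-0.47) and Bcl9 (-0.36) also passed toward adults under 2-fold. The Dishevelled genes, which carry the signal from Frizzled, passed toward neonates, with log2 fold changes of 0.85 for Dvl1, 0.54 for Dvl3 and 0.37 for Dvl2. Tcf7l1, mostly a repressor of targets, was at 0.87, and Ctnnbip1 (0.64) and Pygo2 (0.24) also passed toward neonates.

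Of 7 target genes of beta-catenin tested, none was called, 2 passed toward adults and 1 toward neonates. Among all genes tested, 31.1% passed toward adults and 31.2% toward neonates. The median log2 fold change of the 7 was 0.17. Axin2, a feedback inhibitor widely used as a readout of the pathway, had 55.5 and 56.9 CPM in neonates and 95.4 and 75.5 CPM in adults, 1.52-fold higher in adults (log2 fold change -0.60, SE 0.11, edgeR adjusted p = 0.00166). Ccnd1 passed toward adults at -0.22 and Myc toward neonates at 0.48. Nkd1, Nkd2, Lef1 and Tcf7 did not pass, with log2 fold changes from 0.080 to 0.23.

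Of 11 polarity genes tested, 5 passed toward neonates and 1 toward adults, where 31.2% and 31.1% of all genes tested did, and no test of the list was made. Prickle3 was called higher in neonates, with 52.8 and 47.6 CPM against 19.1 and 23.1 CPM (log2 fold change 1.25, SE 0.12, edgeR adjusted p = 3.42e-05). Scrib (0.88), Celsr2 (0.50), Daam1 (0.46) and Celsr3 (0.33) passed toward neonates under 2-fold, and Prickle2 passed toward adults at -0.28. Vangl1 and Vangl2, the core membrane proteins of planar polarity, did not pass.

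**Figure D5:**
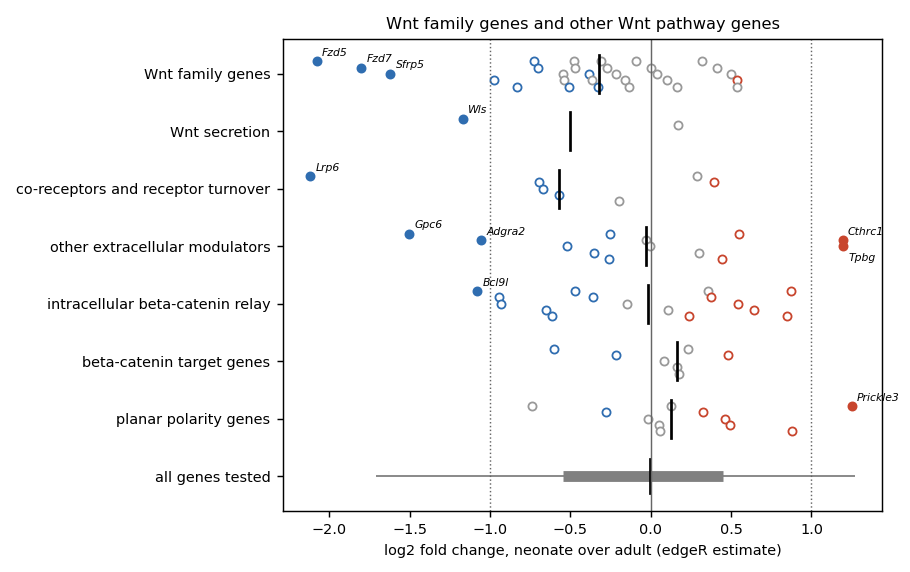
Log2 fold change, neonate over adult, of the 30 tested Wnt family genes and of 6 lists of other pathway genes, 1 point per gene, with a black bar at each median. Filled points are called genes, with names, open colored points passed under 2-fold (blue toward adults, red toward neonates) and gray points did not pass. The lowest row gives the 5th to 95th percentile of all genes tested, from -1.71 to 1.27, and their middle 50% from -0.543 to 0.452.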

How the data were processed

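Poly A+ RNA of pooled whole CBs was sequenced at day 5 (neonates) and day 21 (adults), 2 libraries per age. Adults were raised from the litters of the pups. The authors trimmed the reads, mapped them with STAR to Rnor_6.0.102 and deposited Salmon (version 1.5.2 in the submitters' processing notes) estimated counts summed per gene, not normalized and not filtered. The strand setting is not given in the sources used here.

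Estimated counts were rounded and analyzed with edgeR 4.0.16 (R 4.3.3). Alternatives used DESeq2 1.42.0, limma-voom (limma 3.58.1), RLE size factors, library size alone, other filters, a replicate block and each library left out in turn. By symbol or synonym in a RefSeq gene table (GRCr8), 636 genes of other kinds than protein-coding were left out. The 13843 genes that reached 1 CPM in 2 or more libraries were scaled by TMM, then edgeR's quasi-likelihood test was run without covariates, and p-values were Benjamini-Hochberg adjusted over all of them. SEs were taken as the log2 fold change over the square root of F. The procedure was run on simulated counts in which all genes varied alike and few differed between ages. These data differ from that, so the run is no check on the calls here. Libraries of an age differed by a chi-square per degree of freedom of 36.7 (neonates) and 17.1 (adults), well above sampling noise. The labels call the libraries biological replicates.

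Every Wnt family gene was accounted for. Values in each library were given for those tested, and up to 4 other pathway genes per list were named, the called ones first by absolute log2 fold change. Names beyond 4 per list were chosen after their values were seen. Genes and lists were chosen with earlier results of these data known. Listed genes without a matching symbol were not analyzed here. Python 3.11.15 drew the figures.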

Additional observations from a re-analysis of the deposited data

How the results depend on the processing

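Without a minimum fold change, 4325 genes passed toward neonates and 4300 toward adults, and the counts were 1 and 10 for the Wnt family and 17 and 21 for the other pathway genes. Scaled to library size alone, 704 genes were called higher in neonates and 2549 higher in adults. With that scaling 5 Wnt family genes were called higher in adults and 1 other pathway gene higher in neonates. With a mean of at least 5 CPM, 656 and 1168 genes were called. Without a filter on low counts 1 Wnt family gene, Wnt8a, was called higher in neonates. With each library left out in turn, in fits that take a lone library to vary like the other age's pair, called Wnt family genes numbered from 2 to 4 toward adults and 0 toward neonates, other pathway genes from 3 to 7 and 3, and all genes from 1325 to 1897 and from 933 to 1049. Replicate numbers are not stated to pair the samples, and the correlation of deviations across the 13843 genes was -0.0154. With a replicate block, 0 and 3 Wnt family genes were called as before, and 1071 and 1866 genes in all. In that fit 3 and 12 Wnt family genes passed, and the share of all genes that passed was not counted.

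Signs turned for genes that had not passed. Scaled to library size alone, Lgr5 (-0.24), Fzd1 (-0.079), Sfrp1 (-0.14) and Wnt10a (-0.20) became negative. Lgr5 was also at -0.0022 with limma-voom, -0.022 without a filter, -0.033 with a mean of at least 5 CPM, -0.0023 with a replicate block and from -0.12 to 0.14 with each library left out in turn (-0.046 and -0.0022 without adult replicates 1 and 2). With each left out, Rspo1 ranged from -0.13 to 0.82, Wnt4 from -0.45 to 0.13 and Wnt10a from -0.19 to 0.245. Fzd5 and Sfrp5 were called in all 13 alternatives. Fzd7 was called in the 10 that tested it. The other alternatives dropped Fzd7 by the filter, which it met only through the adult libraries, so they could not put its call at risk. Counts limit the rare ligands, whose order between ages could not be seen at 12 counts or fewer in all.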
